A study of Homo sapiens with 14 samples.

Results

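The end of the CFTR protein was examined here through the ribosome footprints that fell on it: residues 1201 to 1480, 280 of the 1480 residues of the reading frame (18.9%). The region is defined by position, and it was chosen with earlier results of these data known. They approximately cover the second nucleotide-binding domain (NBD2), the C-terminal tail and the last codons before translation ends. CFTR, the channel that is defective in cystic fibrosis, belongs to the ABC transporter family. On GRCh38.p14 the gene occupies chromosome 7 from 117480025 to 117668665, but the mRNAs measured here came from expression constructs, and positions are residues of the protein. Its nucleotide-binding domains carry the Walker A, Walker B and signature sequences that bind ATP, and the channel opens when NBD1 and NBD2 close on each other around ATP. The C-terminal tail ends in a short motif that binds PDZ-domain proteins. NBD2 is the last domain to leave the ribosome, and the tail is still inside the ribosomal exit tunnel when the stop codon is reached. No protein or codon sequence of the constructs was used here, so residues are given by number, with no amino acid or codon attached.

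All libraries were made from HEK293, an immortalized human embryonic kidney line in which a CFTR construct was overexpressed. Per the series' design text, the CFTR variants were expressed heterologously and differ in synonymous codons. WT is the CFTR_WT construct (n = 5). High-abc carries other synonymous codons, which the labels do not list (n = 5). High-Leu558 carries a UUA-to-CUC change of the Leu558 codon (n = 2), and WT-Leu558_within_High-abc is High-abc with the WT codon at Leu558 (n = 2). Leu558 is in NBD1, so no label places a codon change within residues 1201 to 1480 in High-Leu558. No promoter is named in the labels, and the files hold CFTR positions only, so markers of the cell line could not be looked at. The labels do not state that replicates are separate cultures, and p-values here reflect nothing but the variation among these libraries, possibly technical.

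Each library gave between 2463 and 32630 CFTR reads (median 6374), and the region held between 399 and 3692 of them. An average residue of the region thus held 1.43 to 13.2 reads per library. Between 121 and 245 of the 280 residues had at least 1 read. With 0 reads at a residue, its share could still be up to 0.122% of CFTR reads in the library of fewest reads, and up to 0.00919% in that of most. These limits rest on 3 reads and cover counting error only. The libraries numbered 2 in WT and High-abc had the lowest shares of reads in the region, and the 2 libraries numbered 3 were the shallowest and stood apart at residue 1221.

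The region held fewer reads than its length would give under an even spread. Its share of CFTR reads was 16.0%, 11.3%, 16.2%, 18.4% and 15.5% in WT replicates 1 to 5. In High-abc replicates 1 to 5 it was 14.8%, 11.3%, 16.2%, 16.7% and 15.3%. High-Leu558 gave 17.6% and 18.2%, and WT-Leu558_within_High-abc gave 16.2% and 15.1%. All 14 values lie below 18.9%, the region's share of residues. Replicate 2 was the lowest library of both WT and High-abc, and WT replicate 4 was the highest of all. WT and High-abc overlap over nearly their whole range, and both High-Leu558 libraries lie above every High-abc library but not above WT replicate 4.

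**Figure D1:**
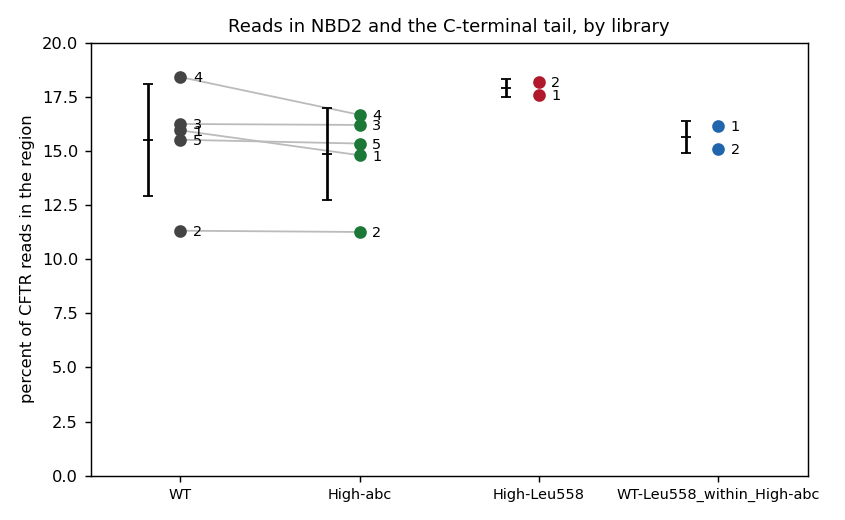
Percent of each library's CFTR reads that fell on residues 1201 to 1480, with 1 point per library, labelled by replicate number, for the 4 constructs; black bars give the mean and SD, and grey lines join WT and High-abc libraries of the same number. Replicate 2 is the lowest in both groups, at 11.3%, and both High-Leu558 libraries are at 17.6% or above.

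The first comparison asked whether the codons of High-abc move ribosomes into or out of this region. WT had a mean share of 15.5% ± 2.59 and High-abc one of 14.9% ± 2.14 (SD over n = 5 libraries of each), a log2 difference of -0.06 (SE 0.15), which did not pass (two-sided exact permutation p = 0.635, 0.976 after adjustment over the 6 parts into which the frame was divided). By replicate number, High-abc was lower than WT in 5 of 5 pairs, with log2 differences of -0.11, -0.01, -0.00401, -0.14 and -0.02 for replicates 1 to 5. The group difference is smaller than either group's SD, but these SDs and the test above ignore the pairs. Within the 5 pairs the SE of the difference was 0.03. An exact test that flips the signs of the pair differences gave p = 0.0625, the smallest that 5 pairs allow, and 0.375 after adjustment over the 6 parts. The difference of unpaired means turned when 1 library of a pair, High-abc replicate 2 (0.04) or WT replicate 4 (0.01), was left out. It was -0.07 without both libraries numbered 2 and -0.07 without both numbered 3.

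The single codon change at Leu558 in the WT sequence was then examined, far upstream of the region. The share was 17.9% ± 0.416 in High-Leu558 (SD over n = 2), a log2 difference of 0.23 (SE 0.12) from WT that did not pass (exact permutation p = 0.286, adjusted 0.429; 0.0952 is the smallest p that 2 against 5 libraries allow). Without WT replicate 2 it was 0.117, and without the most covered 1% of residues 0.138. High-abc against High-Leu558 differed by -0.28 on the log2 scale (SE 0.10; exact permutation p = 0.0952, adjusted 0.381), and by -0.185 without High-abc replicate 2. These 2 comparisons share the High-Leu558 libraries. With the WT Leu558 codon in High-abc the share was 15.6% ± 0.740 (SD over n = 2), a log2 difference of 0.09 (SE 0.11) from High-abc (exact permutation p = 0.952, adjusted 0.952) and of 0.03 (SE 0.13) from WT (p = 0.857, adjusted 0.952). The sign of both turned without the libraries numbered 2 of WT and High-abc, to -0.01 and -0.08. The difference from WT also turned, to -0.0177, without WT-Leu558_within_High-abc replicate 1.

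Within the region the reads were spread unevenly. Occupancy is used below: the reads at a residue divided by the library's mean number of reads per residue of the whole frame, so that 1 is an average residue. Averaged over the 4 groups, the median member had an occupancy of 0.40, 60 members were above 1, 12 were above 3, and 40 were under 0.1. The other 1200 residues of the frame had a median of 0.55, and 6.08% of them were above 3 against 4.29% of the members. A read was found in all 14 libraries at 39 members and in at least 7 libraries at 212. Residues 1212, 1300, 1347, 1366 and 1386 had no read in any library, as did 6 of the other 1200 residues.

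**Figure D2:**
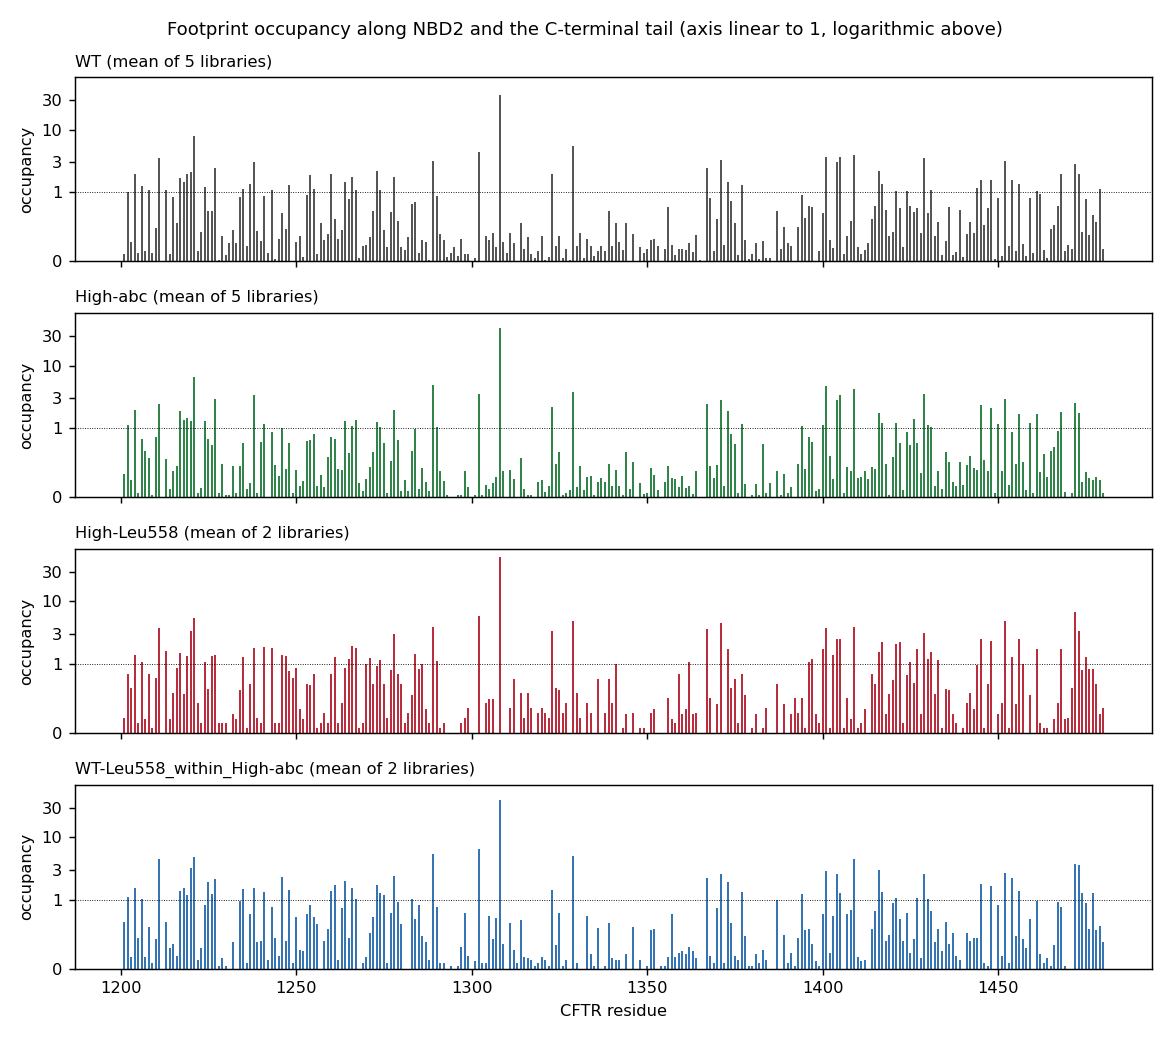
Mean footprint occupancy at each residue from 1201 to 1480 (vertical axis linear to 1 and logarithmic above, dotted line at 1) in the 4 constructs. Residue 1308 stands highest in every construct. Low stretches lie on both sides of it, from 1291 to 1300 and from 1311 to 1320. Others run from 1331 to 1360 and from 1381 to 1390.

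Residue 1308 carried the highest occupancy of the region and of the whole frame in all 4 group means. WT replicates 1 to 5 had occupancies of 54.3, 27.6, 19.0, 48.8 and 33.0 there. High-abc replicates 1 to 5 had 55.2, 27.9, 27.6, 51.2 and 42.1. High-Leu558 had 55.7 and 46.2, and WT-Leu558_within_High-abc had 46.6 and 34.3. It was the most occupied residue of the frame in 10 of the 14 libraries, and in the other 4, replicates 2 and 3 of WT and of High-abc, its rank was between 2 and 5. The group means were 36.5 ± 14.7 in WT, 40.8 ± 12.8 in High-abc (SD over n = 5 libraries of each), 50.9 ± 6.72 in High-Leu558 and 40.4 ± 8.70 in WT-Leu558_within_High-abc (SD over n = 2 libraries of each). All groups overlap.

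The peak was 1 residue wide. Over all libraries, residue 1308 held 3626 reads, while residue 1307 held 19 and residue 1309 held 23. Of the region's reads, WT had 15.9% ± 5.51 at this residue and High-abc had 18.6% ± 5.04 (SD over n = 5 libraries of each). It was 19.3% ± 2.99 for High-Leu558 and 17.4% ± 2.93 for WT-Leu558_within_High-abc (SD over n = 2 libraries of each). WT replicate 3 was lowest, with 7.91% of its region's reads there, and High-abc replicate 1 was highest, with 25.2%. Without residue 1308 the region held 13.4% ± 2.38 of all CFTR reads left in WT and, in High-abc, 12.4% ± 1.98 (SD over n = 5 libraries of each).

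Low stretches flanked the peak. The frame was cut into 148 windows of 10 residues, 28 of them in the region. The window from 1301 to 1310, which holds the peak, ranked first of 148 by occupancy averaged over groups, and the window just before it, 1291 to 1300, ranked last. The 6 lowest windows of the frame all lay in the region: 1291 to 1300 (occupancy 0.14, 112 reads over all libraries), 1341 to 1350 (0.19), 1381 to 1390 (0.21), 1311 to 1320 (0.26), 1351 to 1360 (0.26) and 1331 to 1340 (0.27). The next lowest window of the frame had 0.33. The highest occupancy that any of these 6 windows reached in any of the 14 libraries was 0.503. In the region, 7 of 28 windows were under 0.5, against 14 of the other 120; this difference was not tested.

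By occupancy averaged over the 4 groups, windows above 1 were those beginning at 1211, 1221, 1301, 1401, 1421 and 1471. Those at 1221, 1301 and 1401 were above 1 in each group mean. The window at 1471 had 0.91 in WT and 0.61 in High-abc, against 1.62 in High-Leu558 and 1.29 in WT-Leu558_within_High-abc. That at 1421 had 0.99 in WT and 0.84 in WT-Leu558_within_High-abc, and that at 1211 had 0.98 in High-abc. The stretches from 1201 to 1280 and from 1361 to 1440 had mean occupancies of 0.88 ± 0.19 and 0.72 ± 0.13 in WT; High-abc had 0.76 ± 0.16 and 0.71 ± 0.18 (SD over n = 5 libraries of each). The stretch from 1281 to 1360, which includes residue 1308, had 0.87 ± 0.25 in WT and 0.90 ± 0.22 in High-abc. Residues 1441 to 1480, the tail end, had 0.78 ± 0.19 in WT, 0.75 ± 0.13 in High-abc (SD over n = 5 libraries of each), 1.00 ± 0.08 in High-Leu558 and 0.78 ± 0.03 in WT-Leu558_within_High-abc (SD over n = 2 libraries of each). No segment separated WT from High-abc.

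Behind residue 1308, the members with the next highest occupancies were 1221, 1302, 1329, 1289, 1409, 1472, 1401, 1211 and 1452, with means over the 4 groups from 6.22 down to 3.37. The mean at residue 1308 was 6.78 times that at residue 1221. Together the 10 held between 29.3% and 36.9% of a library's region reads. In the frame as a whole they had ranks 1, 22, 32, 39, 48, 54, 58, 62, 65 and 69 of 1480. Of the 100 most occupied residues of the frame, 12 were members.

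Their order was not stable between libraries. Residue 1221 had an occupancy of 22.9 in WT replicate 3 and 19.8 in High-abc replicate 3, and between 2.67 and 6.89 in the other 12 libraries. Its group median was 5.07 in WT and 3.25 in High-abc. Residue 1302 was at 7.86 in WT replicate 5, 8.27 in High-abc replicate 5 and 8.89 in High-Leu558 replicate 2, and at 2.59 to 4.47 in the other WT libraries. Residue 1211 had no read in WT replicate 3 and reached 7.86 in WT replicate 5.

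At the other 6 of the 10, WT and High-abc overlapped; residue 1472 is described with the tests. Residue 1329 ranged from 3.22 to 8.17 in WT (median 5.58) and from 1.20 to 6.06 in High-abc (median 4.00). Residue 1289 ranged from 1.28 to 5.59 in WT (median 2.99) and from 1.87 to 9.61 in High-abc (median 4.87). Residues 1409 and 1401 had WT medians of 3.49 and 3.83 and High-abc medians of 3.99 and 3.16. Residue 1452 had a WT median of 2.13, with WT replicate 4 apart at 8.17, and a High-abc median of 3.10. By the mean over groups, neighbours in the order from 1302 to 1452 differ by less than the SD of either among the 5 WT libraries.

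**Figure D3:**
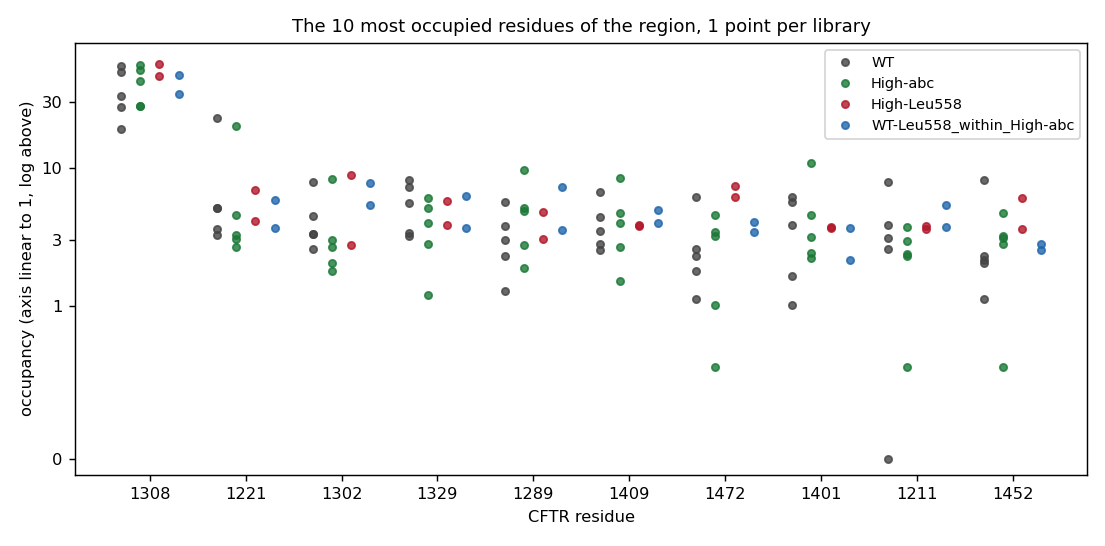
Occupancy of the 10 most occupied residues of the region in each of the 14 libraries, 1 point per library, colours by construct (vertical axis linear to 1 and logarithmic above). Residue 1308 lies between 19.0 and 55.7, and the single high points at residue 1221 are replicate 3 of WT (22.9) and of High-abc (19.8).

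Differences between constructs at single residues were then tested with edgeR's quasi-likelihood test over the whole frame. Of the 280 members, 41 had enough reads to be tested; these held 59.3% of the region's reads, and the other 239 were not tested. In High-abc against WT, 0 of the 41 passed an adjusted p of 0.05, against a background of 0.615% of the 325 residues tested in the frame. The median log2 change of the 41 was -0.08, beside -0.05 over all residues tested, with 17 higher and 24 lower. None had an unadjusted p under 0.05, and DESeq2 called 0. The median SE of 0.58 on the log2 scale shows how coarse the test is. It reflects both depth and the spread between libraries, whose coefficient of variation beyond counting error was 53.5% per residue.

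The 3 members with the smallest p in that comparison were residues 1254 (log2 change -1.11, SE 0.76), 1273 (-0.66, SE 0.63) and 1220 (-0.60, SE 0.58), with edgeR adjusted p = 0.9999 for each. At residue 1254 WT replicates 1 to 5 had 0.225%, 0.110%, 0.0378%, 0.190% and 0.0685% of CFTR reads. High-abc replicates 1 to 5 had 0.144%, 0%, 0%, 0.0930% and 0.0399% there. The libraries overlap at all 3 residues. Over all 280 residues, including those not tested, no member separated the 5 WT from the 5 High-abc libraries without overlap, against 0.473% of residues in the frame.

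The comparisons with groups of 2 libraries also called none. In High-Leu558 against WT, 0 of 41 members passed (background 0.308%), and the smallest p was at residue 1472 (log2 change 1.17, SE 0.63, edgeR adjusted p = 0.918). WT replicates 1 to 5 had 0.156%, 0.175%, 0.0756%, 0.414% and 0.120% of reads at residue 1472. High-abc replicates 1 to 5 had 0.216%, 0.0685%, 0.0406%, 0.307% and 0.230%. High-Leu558 had 0.494% and 0.414%, and WT-Leu558_within_High-abc had 0.229% and 0.275%. Both High-Leu558 libraries lie above all High-abc libraries, and WT replicate 4 lies between them.

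Residues 1254 (log2 change -1.51, SE 1.02) and 1273 (-1.23, SE 0.85) followed in High-Leu558 against WT, with edgeR adjusted p = 0.918 for both. High-abc against High-Leu558 also gave 0 of 41 (background 0.308%). Its smallest p was at residue 1472 again (log2 change -1.26, SE 0.63, edgeR adjusted p = 0.988), then at 1220 (-1.19, SE 0.69) and 1227 (1.12, SE 0.76), both with an adjusted p of 0.988.

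With the WT codon at Leu558 restored in High-abc, 0 of 41 members passed relative to High-abc (background 0.615%). The median SE was 0.73 on the log2 scale, so smaller changes could go uncalled. Residues 1405 (log2 change -1.16, SE 0.75), 1220 (1.05, SE 0.70) and 1454 (0.99, SE 0.75) had the smallest p, with edgeR adjusted p = 0.984 for each. Relative to WT, 0 of 41 passed (background 0%), with residues 1405 (-1.42, SE 0.75) and 1246 (1.65, SE 0.89) at an edgeR adjusted p of 0.857 and residue 1254 (-1.15, SE 0.99) at 0.900. The interaction is the effect of the WT codon in High-abc minus that in the WT sequence. It assumes that High-abc carries the Leu558 codon of High-Leu558, which the labels do not state. The interaction also called 0 of 41 (background 0%). Its smallest p values were at residues 1472 (1.56, SE 0.91), 1220 (1.64, SE 0.98) and 1405 (-1.71, SE 1.03), with edgeR adjusted p = 0.800 for each. In these 5 comparisons that hold a group of 2, no member had an unadjusted p under 0.05 and DESeq2 called 0.

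The filter kept 3 of the last 20 residues and all 28 windows, so windows cover the members that single residues could not. In High-abc against WT 0 of 28 windows passed in edgeR (background 0.676%) and in DESeq2, with 1 at an unadjusted p under 0.05. That was the window from 1251 to 1260, with a log2 change of -0.57 and an SE of 0.26 (edgeR adjusted p = 0.999). WT replicates 1 to 5 had 0.606%, 0.405%, 0.567%, 0.414% and 0.617% of reads in it, and High-abc replicates 1 to 5 had 0.523%, 0.223%, 0.244%, 0.381% and 0.319%. High-abc replicate 1 lies inside the WT range, and the other 4 lie below it.

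The same window had the smallest p in High-Leu558 against WT, where 0 of 28 passed (background 0.676%): High-Leu558 had 0.391% and 0.187%, a log2 change of -0.92 with SE 0.34 (edgeR adjusted p = 0.853). Both lie below the 5 WT libraries. In all, 2 of 28 windows did not overlap in this comparison, 1 higher and 1 lower, against a background of 6.08%. High-abc and High-Leu558 were each compared with the same WT libraries here, so these 2 results share a control. WT-Leu558_within_High-abc had 0.401% and 0.405% in this window.

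Windows at 1211 (log2 change -0.42, SE 0.26) and 1471 (-0.49, SE 0.37) followed in High-abc against WT, both with an edgeR adjusted p of 0.999. In High-Leu558 against WT the windows at 1241 (0.74, SE 0.43) and 1471 (0.73, SE 0.44) followed, with an adjusted p of 0.938. In WT-Leu558_within_High-abc against WT, 0 of 28 windows passed (background 0%) and none had an unadjusted p under 0.05. Those at 1281 (0.54, SE 0.34), 1241 (0.65, SE 0.43) and 1341 (-0.75, SE 0.61) had the smallest p, with edgeR adjusted p = 0.874.

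**Figure D4:**
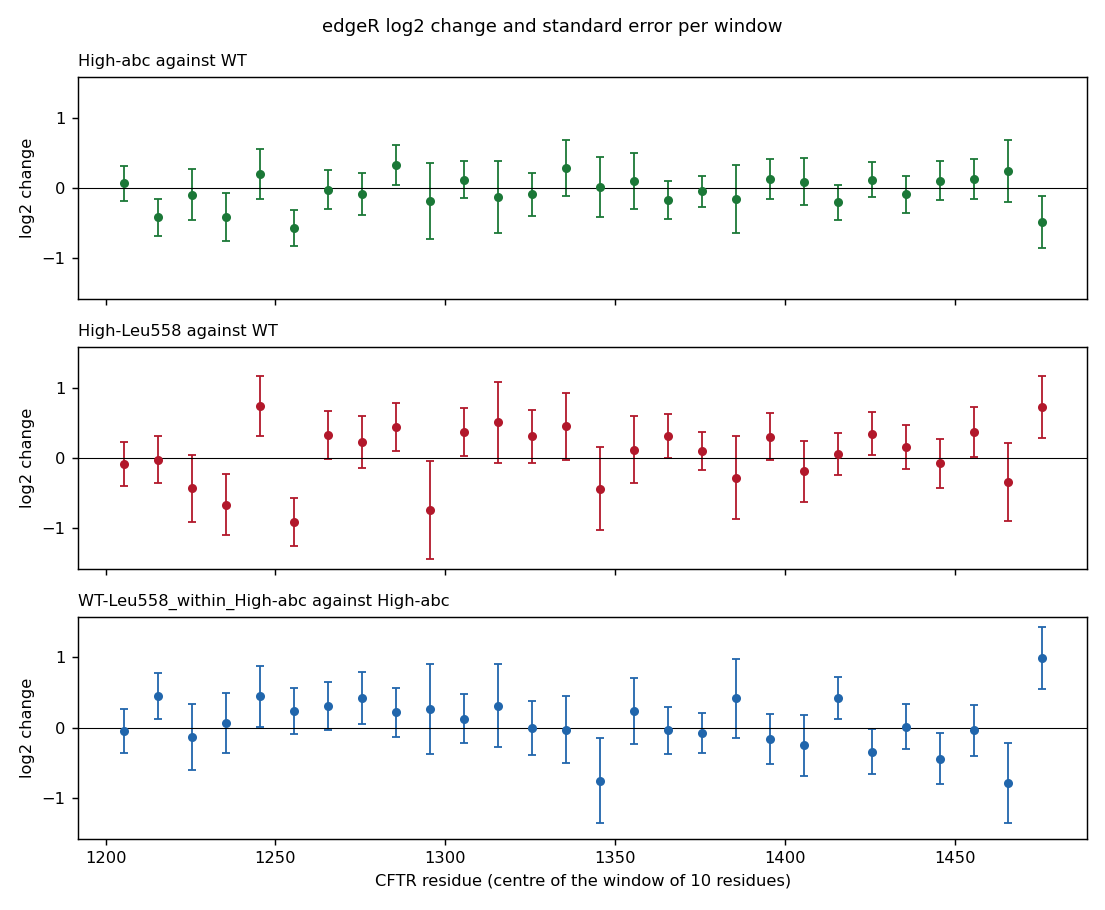
Log2 change and standard error (edgeR) in each of the 28 windows of 10 residues, for High-abc against WT, High-Leu558 against WT and WT-Leu558_within_High-abc against High-abc. No window passed an adjusted p of 0.05; the last window, 1471 to 1480, lies at -0.49, 0.73 and 0.99.

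The last window of the frame had the smallest p of the region in 3 comparisons, without passing the test. In it, residues 1471 to 1480, WT replicates 1 to 5 had 0.416%, 0.469%, 0.302%, 1.16% and 0.736% of reads. High-abc replicates 1 to 5 had 0.361%, 0.188%, 0.122%, 0.725% and 0.659%. High-Leu558 had 1.07% and 1.11%, and WT-Leu558_within_High-abc had 0.802% and 0.941%. All 4 libraries of the groups of 2 lie above all 5 High-abc libraries, and WT spans both. It was the 1 window of 28 that did not overlap between WT-Leu558_within_High-abc and High-abc (background 6.08%), and the 1 of 28 between High-abc and High-Leu558 (background 7.43%).

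Its log2 change was 0.99 (SE 0.45) in WT-Leu558_within_High-abc against High-abc (edgeR adjusted p = 0.658), where 0 of 28 passed (background 0%). It was -1.21 (SE 0.44) in High-abc against High-Leu558 (adjusted p = 0.868), again with 0 of 28 (background 0%). Both comparisons share the High-abc libraries. The interaction was 1.71 (SE 0.63, edgeR adjusted p = 0.635), with 0 of 28 (background 0%). A fit with the replicate number as a block called this window in every comparison that holds a group of 2. The log2 change was 1.501 (edgeR adjusted p = 0.000911) in WT-Leu558_within_High-abc against High-abc. It was -1.73 (0.000362) in High-abc against High-Leu558 and 2.65 (0.000146) in the interaction. In that order, the block fit called 29, 25 and 37 of the frame's 148 windows, so its calls were not specific to this window. Replicate numbers are not shown to pair libraries in the groups of 2.

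The windows next in order of p had smaller changes or larger errors. They were 1411 (log2 change 0.42, SE 0.30) and 1461 (-0.79, SE 0.57) in WT-Leu558_within_High-abc against High-abc, both with an edgeR adjusted p of 0.724. In High-abc against High-Leu558 they were 1361 (-0.48, SE 0.32) and 1241 (-0.54, SE 0.43), with 0.868. In the interaction they were 1241 (1.18, SE 0.61) and 1251 (-0.68, SE 0.47), with 0.635. Over all 280 residues, 14 were higher and 1 lower without overlap in High-Leu558 against WT (background 7.64%). WT-Leu558_within_High-abc against High-abc had 17 and 2 (background 6.22%), and against WT 10 and 2 (background 7.3%). High-abc against High-Leu558 had 1 and 19 (background 7.5%). Over the frame, the same 4 comparisons had 87 higher and 26 lower, 64 and 28, 83 and 25, and 31 and 80 of 1480 residues. Where any of the 5 WT or High-abc libraries had 0 reads, that group could not lie above the group of 2 without overlap. WT replicate 3 had reads at 134 of the 280 residues and High-abc replicate 3 at 121. The counts of higher and lower residues are therefore unequal in part by construction, and no direction was read from them. DESeq2 called 0 windows in each comparison, and at most 1 window in any had an unadjusted p under 0.05 in edgeR.

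Within the last 20 residues, reads fell mainly at residues 1472 (326 reads over all libraries), 1473 (233), 1468 (127) and 1461 (104). Each of the 7 residues from 1474 to 1480 held between 17 and 74. No pile-up was seen at the last residue: residue 1480 held 17 reads over all libraries, in 8 of the 14, and its occupancy averaged 0.25 over groups. The files give no position beyond it, so the stop codon itself was not measured. The last 20 residues together had an occupancy of 0.77 ± 0.25 in WT, 0.66 ± 0.21 in High-abc (SD over n = 5 libraries of each), 1.04 ± 0.00420 in High-Leu558 and 0.83 ± 0.02 in WT-Leu558_within_High-abc (SD over n = 2 libraries of each). Relative to the mean density of the region, that density was between 0.53 and 1.14 in the 14 libraries.

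The WT and High-abc libraries that carry the same replicate number were on median more alike within the region than other pairs, with overlapping ranges. The labels do not say what a number shares. Over the 280 residues, which are not independent replicates, Spearman's correlation between a WT and a High-abc library had a median of 0.61 for the 5 same-numbered pairs (range 0.52 to 0.75) and of 0.49 for the 20 pairs with different numbers (range 0.31 to 0.75). Libraries of the same construct had a median of 0.50 over 20 pairs (range 0.30 to 0.77). Among WT and High-abc, the same-numbered library was the closest for WT replicates 3, 4 and 5 and High-abc replicates 2 and 3. It was not for WT replicates 1 and 2 and High-abc replicates 1, 4 and 5. All pairs share the same residues, and depth differs between them, so these are descriptions.

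Levels at single members were therefore compared between replicate numbers, with the construct kept as a term. This comparison was chosen after the values had been seen, and so were the residues it names. In edgeR's quasi-likelihood test, 8 of the 41 members tested differed between the 5 numbers (19.5%), against a background of 18.2% of the 325 residues tested. The share in the region is near that of the frame. They were residues 1221 (adjusted p = 0.000175), 1308 (0.00364), 1227 (0.0108), 1302 (0.0263), 1473 (0.0288), 1405 (0.0365), 1238 (0.0394) and 1289 (0.0394).

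At residue 1221 the libraries numbered 3 had 1.55% (WT) and 1.34% (High-abc) of CFTR reads, and the other 8 had between 0.180% and 0.345%. Residue 1238 showed the same 2 libraries apart, at 0.453% and 0.690%, with the other 8 between 0.0744% and 0.173%. Residue 1473 held 0 reads in both libraries numbered 3, and between 0.0541% and 0.240% of reads elsewhere in WT and High-abc. These are the 2 shallowest libraries of the series, and a count of 0 there allows up to 0.113% and 0.122%.

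Other numbers stood out at other members. Residue 1302 was highest in the libraries numbered 5, at 0.531% in WT and 0.559% in High-abc, with the other 8 between 0.121% and 0.302%. Residue 1227 was high in numbers 1 and 2, between 0.242% and 0.359%, and between 0.0514% and 0.122% in numbers 3 to 5, with WT and High-abc alike. Residue 1308 was high in numbers 1 and 4, between 3.30% and 3.73% of all CFTR reads, and at 1.28% to 1.88% in numbers 2 and 3. In windows, 11 of 28 (39.3%) differed between numbers, against 47.3% of the 148 windows of the frame. They began at 1221, 1231, 1241, 1301, 1311, 1321, 1331, 1341, 1401, 1461 and 1471, so both the peak at 1308 and the last 20 residues were among them.

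**Figure D5:**
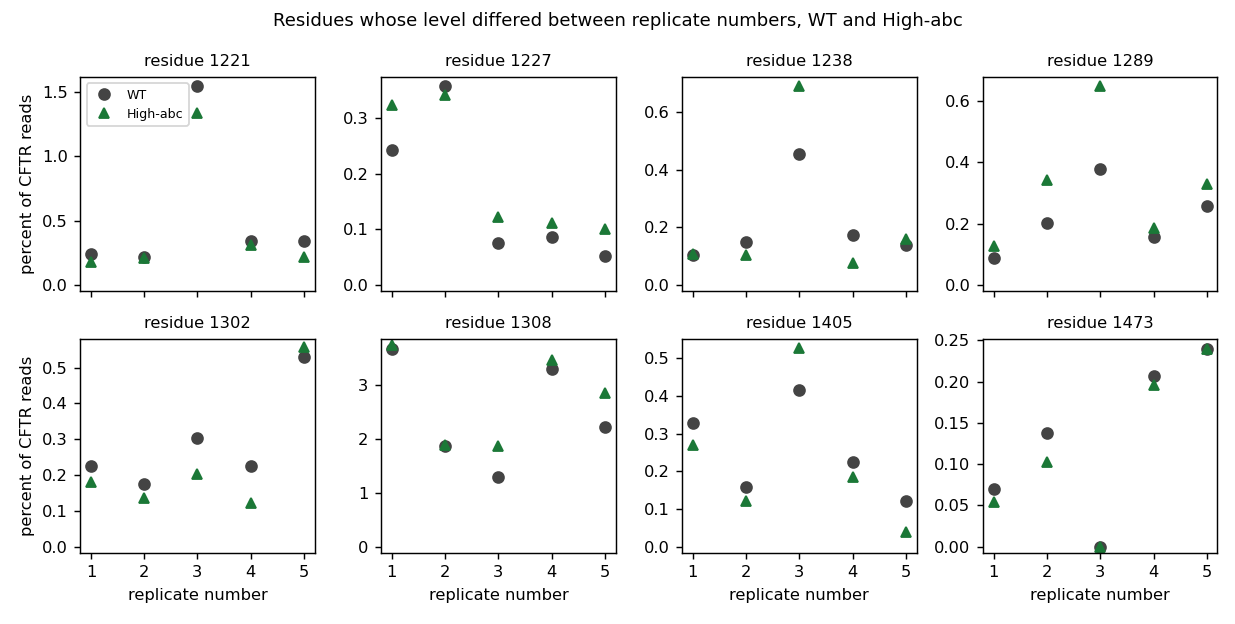
Percent of CFTR reads in WT (circles) and High-abc (triangles) libraries by replicate number at the 8 members that differed between numbers; each panel has its own vertical axis, from 0. The members were chosen for differing between numbers; at residue 1221 number 3 lies at 1.55% and 1.34%, while at residue 1289 the same 2 libraries are further apart, at 0.378% and 0.650%.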

How the data were processed

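Footprints were made with RNase I, linker ligation, cDNA circularization and PCR, per the labels' protocols. HISAT2 and hg38 appear in the submitters' processing notes; which sequence was mapped to, and how a footprint was assigned to its residue, is not given in the sources used here. Each deposited file lists, per the file headers, the read count per residue and its percent of CFTR-mapped reads. The deposited percent equalled 100 times count over total within 0.0005, so counts were used, with missing residues as 0. No molecular identifiers are mentioned, and limits computed from counts therefore hold for counting error alone.

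The fit covered all 1480 residues, ends included, in R 4.3.3 with edgeR 4.0.16 and limma 3.58.1: TMM, filterByExpr, 1 term per group for all 14 libraries, glmQLFit, glmQLFTest, and Benjamini-Hochberg adjustment at 0.05 over every residue or window tested. SE is the log2 change divided by the square root of F. Beyond counting error, the coefficient of variation between libraries was 53.5% per residue and 31.8% per window. Region shares were tested on log2 values by two-sided exact permutation of libraries (Python 3.11.15, scipy 1.17.1). The edgeR fit was tested on simulated data, and the permutation test was checked against the scipy function.

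Same-numbered WT and High-abc libraries deviated together from their group means at the tested residues of the frame (r from 0.41 to 0.57 in 5 of 5 pairs, other pairs had a median of -0.18), and meet the criterion for pairs from the data alone. Deviations from a group mean cancel over its libraries, so positive same-numbered pairs push the other pairs negative. The median of -0.18 is thus not separate evidence of pairs. The tests reported are unpaired, with the paired form as an alternative. In the groups of 2, r was between -0.03 and 0.07.

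Named residues and windows were those called and, where fewer than 3 were called in the region, the 3 with the smallest p per comparison, with the 10 most occupied residues, 4 segments and the last 20 residues; motif positions were not analysed here, since no protein sequence was used. The region and these lists were chosen with earlier results of these data known. Alternatives were library totals, DESeq2 1.42.0, other filters, windows and boundaries, ends or the most covered 1% left out, fits of just the compared groups, a block on replicate number, and omission of each library.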

Additional observations from a re-analysis of the deposited data

Results flagged for a closer look

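Dixon's test was run on 32 sets, each of the 5 values of WT or of High-abc (the region, its segments, the last 20 residues and the 10 most occupied residues); in 6 sets 1 library was distant from the rest, and chance alone marks about 1 set in 20. Residue 1221 had an occupancy of 22.9 in WT replicate 3, with the other WT libraries between 3.27 and 5.11. In High-abc replicate 3 it was 19.8, with the others between 2.67 and 4.54. Residue 1401 had 10.8 in High-abc replicate 3, with the others between 2.22 and 4.56. Residue 1302 had 8.27 in High-abc replicate 5, with the others between 1.79 and 3.00. WT replicate 4 stood apart in the tail: residues 1441 to 1480 held 3.00% of its reads, with the other WT libraries between 1.81% and 1.96%, and residue 1452 had an occupancy of 8.17, with the others between 1.12 and 2.31.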

How the results depend on the processing

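No alternative scaling, filter, window, boundary or set of libraries called a residue or window of the region, except the block on replicate number; omitting any single library gave 0 calls in each comparison. Fits without replicates 2 or without replicates 3 of WT and High-abc, and the fit of WT and High-abc alone with the block, were chosen after seeing the data. For High-abc versus WT, whose numbers pair, the block gave 0 residues and 0 windows. The region share difference within the 5 pairs was -0.06 on the log2 scale (SE 0.03). Its exact test, which flips the signs of the pair differences, gave p = 0.0625, the smallest possible, and 0.375 after adjustment over the 6 parts. In the groups of 2 the numbers are not shown to pair libraries. There the replicate block called 1 of 41 residues and 4 of 28 windows for High-Leu558 versus WT (frame: 22 of 325 and 21 of 148). It called 1 and 3 for WT-Leu558_within_High-abc versus High-abc (frame: 29 and 29), and 0 and 3 for the same construct versus WT (frame: 29 and 21). It called 1 and 4 for High-abc versus High-Leu558 (frame: 26 and 25), and 2 and 6 for the interaction (frame: 44 and 37). The window from 1471 to 1480 was among those called in all 5, and the cause was not tested. For the interaction, all 4 groups are the compared groups, so that alternative is the same fit. Within pairs High-abc was lower than WT in 5 of 5, by log2 differences from -0.14 in replicate 4 to only -0.00401 in replicate 3. With 1 library omitted, the unpaired region share difference ranged from -0.165 to 0.0408 for High-abc versus WT. The range was 0.117 to 0.293 for High-Leu558 versus WT and -0.327 to -0.185 for High-abc versus High-Leu558, with the value nearest 0 without replicate 2 in both. For WT-Leu558_within_High-abc versus High-abc the range was -0.0101 to 0.135, with -0.0101 without replicate 2 of WT and High-abc. Versus WT it was -0.0781 to 0.0975, with -0.0781 without replicate 2 of WT and High-abc. The difference from WT also turned, to -0.0177, when WT-Leu558_within_High-abc replicate 1 was omitted. In both comparisons the direction turned, and the cause was not tested. Depth left 239 of 280 members too sparse to test.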
